A study of Mus musculus with 10 samples.

Results

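The Ms4a genes encode small proteins that cross the cell membrane several times, with both ends in the cytoplasm, and that act mainly as partners of immune receptors and channels. The family is best known for CD20 (Ms4a1) on B cells and for the beta chain of the high-affinity IgE receptor (Ms4a2) on mast cells and basophils, while other members are expressed in T cells, in monocytes and in macrophages. Many of the genes lie side by side and arose by duplication, so that neighbours are often close copies. The account covers 8 of them, Ms4a3, Ms4a4a, Ms4a4b, Ms4a4c, Ms4a6b, Ms4a6c, Ms4a6d and Ms4a7, taken as a named list and matched by symbol. Of these 8 members, 7 were found among the 29893 genes of the deposited tables and 6 passed the filter on low counts, together with 13384 genes in all. Ms4a4a is not analysed here, and Ms4a3 was measured but fell below the filter.

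The study compared RNA of CCR2+ monocytes and of neutrophils that were sorted by flow cytometry out of the lungs of tumour-bearing NOD/scid mice, a strain without functional B and T lymphocytes, at the end point of tumour growth. The tumours were HCl-002, named TN2 and described as low metastatic, and HCl-001, named TN1 and described as highly metastatic. There were 3 TN2 libraries (tag_367, tag_706 and tag_1341) and 2 TN1 libraries (tag_191 and tag_482) of each cell type, so 10 libraries in 4 groups, each tag occurring once among the monocytes and once among the neutrophils. All groups carried a tumour, no tumour-free group is analysed here, and the ages of the mice are not given in the sources used here. The labels do not say that tags are separate animals, so p-values measure the spread between these samples, which may be technical.

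Libraries held 7239218 to 11311370 estimated counts. All 12 neutrophil markers examined were lower in the monocyte libraries than in the neutrophil libraries, with a median log2 difference of -8.37, and Ccr2, the receptor used for the monocyte sort, was higher there (226 to 868 CPM, counts per 1000000 TMM-scaled counts, in monocytes, against 3.49 to 78.6 CPM in neutrophils). Of 12 monocyte markers, 8 were higher in monocytes and 2, Cd14 and Itgam, were lower. Among the neutrophil libraries TN2 tag_1341 stood apart, with the highest value for 8 of 12 monocyte markers (66.7%, against 23.8% of all genes tested), and among the monocyte libraries TN2 tag_706 had the lowest value for 7 of 12 monocyte markers (58.3%, against 17.1% of all genes). For Ms4a4c, Ms4a6d, Ms4a6c and Ms4a6b, tumour differences within monocytes are given with and without tag_706. For the same genes, tumour differences within neutrophils, cell type differences and differences of tumour effects are given with and without neutrophil tag_1341.

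All 8 members lie on mouse chromosome 19 (GRCm38) between positions 11321039 and 11640851, a span of 319.8 kb, 5 of them on the plus strand and 3 on the minus strand. Along the chromosome the measured members run Ms4a7 (11321039 to 11336146, minus strand), Ms4a4c (11404770 to 11427246), Ms4a4b (11443553 to 11467055), Ms4a6c (11469366 to 11482192), Ms4a6b (11516512 to 11531256), Ms4a6d (11586604 to 11604849, minus strand) and Ms4a3 (11629496 to 11640851, minus strand). The neighbouring pairs Ms4a4c with Ms4a4b and Ms4a6c with Ms4a6b are shown by the 250 bases before their RefSeq starts, because these copies can be set beside their levels. The windows are from RefSeq on GRCm38.p6, plus strand, and capitals mark the longest stretch that a promoter shares letter for letter with its partner. They lie at chr19:11407411-11407660, chr19:11443308-11443557, chr19:11469118-11469367 and chr19:11518309-11518558, and those of Ms4a4c and Ms4a6b fall inside the longer gene spans of GENCODE.
Ms4a4c: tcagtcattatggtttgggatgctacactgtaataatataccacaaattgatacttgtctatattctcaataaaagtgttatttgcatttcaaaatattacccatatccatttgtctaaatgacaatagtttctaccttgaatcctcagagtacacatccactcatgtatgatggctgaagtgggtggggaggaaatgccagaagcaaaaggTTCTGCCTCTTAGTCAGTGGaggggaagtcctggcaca
Ms4a4b: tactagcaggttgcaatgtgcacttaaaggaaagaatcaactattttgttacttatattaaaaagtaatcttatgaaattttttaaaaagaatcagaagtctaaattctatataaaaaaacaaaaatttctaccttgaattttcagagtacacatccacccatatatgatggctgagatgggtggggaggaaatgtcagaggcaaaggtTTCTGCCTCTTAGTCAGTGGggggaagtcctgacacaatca
Ms4a6c: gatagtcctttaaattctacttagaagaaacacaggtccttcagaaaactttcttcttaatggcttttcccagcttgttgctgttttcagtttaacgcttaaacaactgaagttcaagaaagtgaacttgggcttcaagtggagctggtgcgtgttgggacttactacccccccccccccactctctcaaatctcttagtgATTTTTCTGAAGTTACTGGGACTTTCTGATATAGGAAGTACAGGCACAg
Ms4a6b: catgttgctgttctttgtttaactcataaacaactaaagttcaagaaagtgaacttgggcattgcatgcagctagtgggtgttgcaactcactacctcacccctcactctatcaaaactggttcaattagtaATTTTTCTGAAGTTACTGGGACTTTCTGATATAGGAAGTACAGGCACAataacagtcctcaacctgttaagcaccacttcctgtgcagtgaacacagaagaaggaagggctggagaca
The Ms4a4c and Ms4a4b windows matched at 184 of 251 aligned positions (73.3%, local alignment), with a shared run of 20 bases. That run ended 19 bases before the start of Ms4a4c and 22 bases before the start of Ms4a4b. The Ms4a6c and Ms4a6b windows matched at 152 of 182 aligned positions (83.5%), with a shared run of 48 bases. This run ended 2 bases before the start of Ms4a6c, but 71 bases before that of Ms4a6b, so the copies are offset against the annotated starts. Aligned over their whole length, the windows of Ms4a4c and Ms4a4b were identical at 70.8% of positions and those of Ms4a6c and Ms4a6b at 47.4%, so which pair is more alike depends on the alignment. In the other 19 pairs of member promoters the longest shared run was 7 to 12 bases.

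RefSeq promoters were matched for 7 of the 8 members (8 promoters, Ms4a7 with a pair, Ms4a6d with none). After the sequences had been seen, 4 motifs of factors active in myeloid cells were searched in the 250 bases on both strands, the first pair of them first in forms a base longer that are not reported here. GAAANNGAA, an interferon response element core with its last base left free, matched in 4 of the 8 promoters and occurred in 7.13% of all 32851 promoters. The matches were 1 each in Ms4a6c and Ms4a6b, as gaaagtgaa beginning 133 and 206 bases before the start, and 1 in each Ms4a7 promoter. The ETS and IRF composite GGAANNGAA, which can share bases with the first motif, had no match in the 8, nor had the PU.1 motif GAGGAAGT or the C/EBP core TTGCNNAA. They occurred in 6.99%, 2.44% and 9.56% of all promoters. GAGGAAGT is a long form, and the shorter GGAA within it does occur in each window shown. A match is a match of letters, and no match says only that these letters are not in this window.

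Monocytes were compared with neutrophils over both tumours, each tumour with equal weight. Here 4 members, Ms4a4c, Ms4a6d, Ms4a6c and Ms4a6b, were abundant in the monocytes and 13.8 to 17.3 times as high there as in neutrophils. Ms4a4b and Ms4a7 were higher in monocytes too, at far lower levels. The 6 members tested were all higher in monocytes with an adjusted p under 0.05 (edgeR), where 15.5% of all genes were called higher and 27.9% were called in either direction. No member overlapped between the 5 monocyte and 5 neutrophil libraries, which held for 16.0% of all genes in that direction. A positive difference was found in 6 of 6 members and in 58.9% of all genes. The median log2 difference of the 6 was 3.88, against 0.46 over all 13384 genes. The filter asked for 1.05 counts per 1000000 unscaled counts, which Ms4a7 reached in 5 monocyte libraries and 0 neutrophil libraries, so that it had to differ, and which Ms4a4b reached in 5 monocyte and 3 neutrophil libraries. These counts over the members are therefore a description. In bulk RNA, fewer cells of a type and less RNA per cell cannot be told apart.

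Ms4a4c, a myeloid member of the family, was the most abundant. It had 892, 339 and 1303 CPM in the TN2 monocytes (tag_367, tag_706, tag_1341) and 939 and 1033 CPM in the TN1 monocytes (tag_191, tag_482). In neutrophils it had 39.8, 22.2 and 244 CPM in TN2 and 11.1 and 43.6 CPM in TN1, tags in the same order. The lowest monocyte library, tag_706, was still above the highest neutrophil library, tag_1341. The log2 difference, monocytes minus neutrophils, was 4.11 ± 0.78 SE (17.3-fold, adjusted p = 0.00391, edgeR). Without neutrophil library TN2 tag_1341 it was 4.97 ± 0.59.

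Ms4a6d, which is expressed in mouse macrophages, followed. It had 584, 254 and 968 CPM in TN2 monocytes and 796 and 862 CPM in TN1 monocytes, against 30.3, 14.0 and 162 CPM in TN2 neutrophils and 14.8 and 48.8 CPM in TN1 neutrophils. Again tag_706 was lowest among the monocytes and tag_1341 was highest among the neutrophils, without overlap. The log2 difference between the cell types was 3.92 ± 0.75 SE (15.1-fold, adjusted p = 0.00411), and 4.73 ± 0.57 without neutrophil library tag_1341.

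Ms4a6c and Ms4a6b, the neighbouring copies shown above, had the same arrangement. Ms4a6c had 588, 234 and 595 CPM in TN2 monocytes and 585 and 615 CPM in TN1 monocytes, against 30.2, 20.01 and 134 CPM in TN2 neutrophils and 11.3 and 26.7 CPM in TN1 neutrophils. Apart from tag_706, the monocyte libraries lay within a narrow range. Its log2 difference between the cell types was 3.96 ± 0.62 SE (15.6-fold, adjusted p = 0.00129), and 4.61 ± 0.44 without neutrophil library tag_1341. Ms4a6b had 324, 161 and 503 CPM in TN2 monocytes and 290 and 495 CPM in TN1 monocytes, against 33.1, 12.4 and 125 CPM in TN2 neutrophils and 6.14 and 17.6 CPM in TN1 neutrophils. The lowest monocyte value was close to the highest neutrophil value but did not overlap with it. Its log2 difference was 3.79 ± 0.69 SE (13.8-fold, adjusted p = 0.00302), and 4.45 ± 0.56 without neutrophil library tag_1341. With 1 library left out, the lowest log2 differences were 3.78 for Ms4a4c, 3.61 for Ms4a6d, 3.72 for Ms4a6c and 3.51 for Ms4a6b. In both cell types the TN2 values of these genes rose from tag_706 over tag_367 to tag_1341. Their TN1 values rose from tag_191 to tag_482. Ms4a4b and Ms4a7 did not have the same order in both cell types, and the cause was not tested.

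Ms4a4b, best known from mouse T cells, where it modulates signalling by the receptor GITR (Tnfrsf18), was a minor transcript. It had 20.9, 28.1 and 52.1 CPM in TN2 monocytes and 31.5 and 8.06 CPM in TN1 monocytes, against 1.65, 0.671 and 4.58 CPM in TN2 neutrophils and 2.82 and 0.858 CPM in TN1 neutrophils. Relative to its mean, the spread among the monocytes was wider than for the genes above, and tag_706 was not the lowest. The log2 difference was 3.64 ± 0.76 SE (12.5-fold, adjusted p = 0.00618). With 1 library left out, the log2 difference of Ms4a4b ran from 2.99 to 4.19. Beside it, the T cell marker Cd3d was at 0.554 to 9.15 CPM in monocytes and 20.9 to 40.4 CPM in neutrophils, Cd3e was at 0 in all 10 libraries, and the 9 T cell markers other than Cd3d summed to 0.241 to 14.8 CPM in monocytes and 0.143 to 4.94 CPM in neutrophils. The 10 natural killer cell markers summed to 46.4 to 363 CPM in monocytes and 1.22 to 52.7 CPM in neutrophils. Of these, Klrk1 was at 21.9 to 158 CPM in monocytes and 0 to 4.86 CPM in neutrophils. The other 9 summed to 1.46 to 313 CPM in monocytes and 1.22 to 49.0 CPM in neutrophils. What part such cells have in the Ms4a4b values was not tested.

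Ms4a7, a gene of tissue macrophages, was low and even across monocytes. It had 8.09, 7.75 and 9.11 CPM in TN2 monocytes and 9.24 and 7.34 CPM in TN1 monocytes, against 0.253, 0.403 and 0.305 CPM in TN2 neutrophils and 1.15 and 0.858 CPM in TN1 neutrophils. The neutrophil values rest on 2.24 to 9.44 estimated counts a library. The log2 difference was 3.83 ± 0.73 SE (14.3-fold, adjusted p = 0.00380). Ms4a7 passed the filter through the monocytes alone and had to differ, so these values are a description. Interstitial macrophage markers, 10 genes, summed to 422 to 1519 CPM in monocytes and 53.7 to 170 CPM in neutrophils, and 7 of the 10 were higher in monocytes. Dendritic cell markers were higher in monocytes for 7 of 9 tested. What part such cells have in the Ms4a values was not tested.

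Ms4a3, which marks granulocyte and monocyte progenitors and acts on the cell cycle, was nearly silent. It had 3, 0 and 0 estimated counts in TN2 monocytes and 0 in both TN1 monocytes, against 7, 5 and 10 counts in TN2 neutrophils and 0 in both TN1 neutrophils. Its highest level was 1.53 CPM, in neutrophil library tag_1341, and no fold is given. The 8 progenitor markers summed to 59.9 to 209 CPM in monocytes and 14.8 to 42.6 CPM in neutrophils. In monocytes Cd34 was at 0.158 to 116 CPM, Flt3 at 13.2 to 79.8 CPM, Kit at 0 to 61.8 CPM and Prtn3 at 4.09 to 41.6 CPM. Elane, Mpo, Ctsg and Cebpe did not exceed 5.62 CPM there. Flt3 is also on the dendritic cell list and Kit on the mast cell and basophil list. Smart-seq2 reads carry no molecular identifiers, so reads are not counts of molecules. An interval from counts as low as those of Ms4a3 would cover neither the counting error of molecules nor the spread between libraries.

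**Figure D1:**
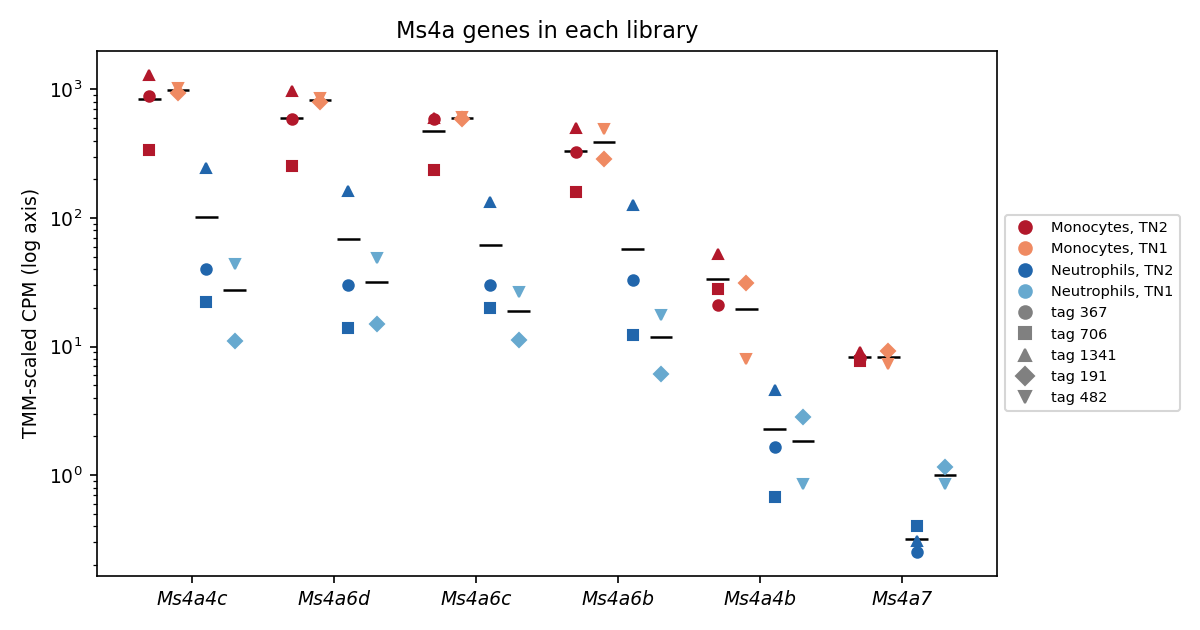
CPM of the 6 tested members on a log axis; each point is a library, its colour the group, its shape the tag, and the bar the group mean. Monocytes lie above neutrophils for every gene shown, monocyte library tag_706 (red square) is low for Ms4a4c, Ms4a6d, Ms4a6c and Ms4a6b, and neutrophil library tag_1341 (blue triangle) is high for the same genes.

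TPM, which corrects for transcript length, allows the members to be set against each other. In monocytes the mean ± SD (n = 5) was 1186 ± 493 TPM for Ms4a4c, 858 ± 338 TPM for Ms4a6d, 460.0 ± 127 TPM for Ms4a6c and 359.5 ± 130.0 TPM for Ms4a6b. In neutrophils the same genes had 55.5 ± 64.6, 38.3 ± 35.4, 21.3 ± 21.5 and 21.8 ± 24.7 TPM. Each of these neighbours in the order overlapped the next in range, but within a library the order held in all 5 monocyte libraries and in 2 of 5 neutrophil libraries. Ms4a4b, at 46.6 ± 28.6 TPM in monocytes and 1.27 ± 1.28 TPM in neutrophils, lay below all of these in the monocytes, with the highest library at 88.1 TPM and the lowest Ms4a6b library at 198 TPM. Ms4a7 came last, at 12.3 ± 2.54 TPM in monocytes and 0.260 ± 0.269 TPM in neutrophils, and its range overlapped that of Ms4a4b.

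By mean TPM, Ms4a4c ranked 98 among 29893 genes in monocytes and 1435 in neutrophils. Ms4a6d ranked 145 in monocytes and 1826 in neutrophils, Ms4a6c 310 and 2644, and Ms4a6b 390 and 2624. Ms4a4b ranked 2315 in monocytes and 8919 in neutrophils, and Ms4a7 5369 and 12884. Ms4a4c and Ms4a4b thus stood far apart in level, while Ms4a6c and Ms4a6b were close.

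All 16 Ms4a genes measured together summed to 1653.5 to 4706 TPM in monocytes (median 3053.9) and 43.1 to 412 TPM in neutrophils (median 115). The sum was far lower in neutrophils, while the shares of the leading genes overlapped between the cell types. Ms4a4c made 34.1% to 40.9% of it in monocytes and 25.9% to 40.7% in neutrophils. Ms4a6d made 23.3% to 31.5% in monocytes and 23.6% to 38.3% in neutrophils. The leading 4 genes together held 84.6% to 97.6% in monocytes and 88.0% to 94.8% in neutrophils, ranges that overlap. The shares were not tested.

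**Figure D2:**
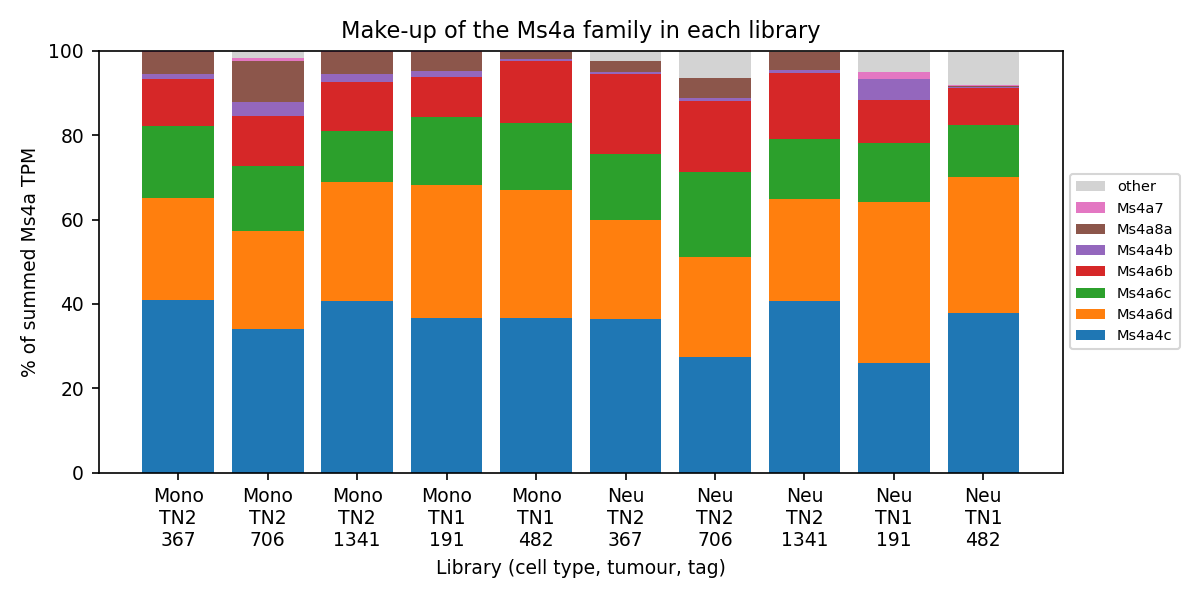
Share of the summed TPM of 16 Ms4a genes (percent, vertical axis) that each gene held in each library, monocytes on the left and neutrophils on the right. Ms4a4c and Ms4a6d held the largest shares in all 10 libraries, and Ms4a4b, Ms4a7 and Ms4a8a held small ones.

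The profiles of the leading members over the 10 libraries were close to each other. Likeness was measured as the root mean square difference between log2 CPM profiles, each centred on its own mean, and is a description without a test. Of 13383 other genes, those closest to Ms4a4c were Ms4a6c (0.318), Ms4a6d (0.326) and Ms4a6b (0.382), against a median of 2.66 over all genes. For Ms4a6c the closest were Ms4a4c (0.318), Pld4 (0.334), which encodes an endolysosomal nuclease, and Ms4a6b (0.350). For Ms4a6d they were Ms4a4c (0.326), Ms4a6c (0.376) and Pld4 (0.444), and for Ms4a6b they were Ms4a6c (0.350), Ms4a4c (0.382) and Pld4 (0.456). The 10 points share the large difference between the cell types and the libraries tag_706 and tag_1341.

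Ms4a4b and Ms4a7 were farther from these. For Ms4a4b the closest genes were Ahr (0.573), the aryl hydrocarbon receptor, Mrps10 (0.635) and Galk2 (0.641), and Ms4a4c ranked 672. For Ms4a7 they were Gas8 (0.352), Naa15 (0.408) and Slc39a10 (0.485), and Ms4a4c ranked 2506. Both have low counts in neutrophils, at most 9.44 a library for Ms4a7.

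Close copies can exchange reads, so the sharing of 31-base words, the unit in which kallisto assigns reads by default, was counted over the transcripts in the tables. Of Ms4a6c words 23.0% also occurred in another gene, of Ms4a4c 16.9%, of Ms4a6b 7.51%, of Ms4a6d 7.01%, of Ms4a4b 3.04%, of Ms4a7 1.05% and of Ms4a3 0%. Genes outside the family are included, so these percentages do not measure sharing between copies alone. Ms4a6c shared 104 words with Prdm11 and 78 with Upb1, and Ms4a7 shared most with Grk4, at 16. Ms4a4c and Ms4a4b had 227 words in common, of 1747 in Ms4a4c and 8802 in Ms4a4b. Ms4a6c and Ms4a6b had 266 in common, of 1811 in Ms4a6c and 4542 in Ms4a6b. Levels of these pairs are uncertain to the extent that such reads were split between them.

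The transcript chosen by kallisto was mostly the same in both cell types. Ms4a4c-201 held 93.0% of the gene's summed counts in monocytes and 88.0% in neutrophils, and Ms4a6d-201 held 98.5% and 96.0%. Ms4a6b-201 held 76.4% in monocytes and 77.4% in neutrophils, with a second coding transcript, Ms4a6b-205, at 18.4% and 16.8%. Ms4a7 differed: in monocytes the coding Ms4a7-203 and Ms4a7-202 held 55.8% and 29.7% of 486 counts, and the retained-intron Ms4a7-205 held 14.0%. In neutrophils Ms4a7-205 held 83.5% of 23.3 counts and Ms4a7-203 had 0, so the little Ms4a7 signal there was mostly not on a coding transcript. Ms4a6d-204, a processed transcript, had 13.2 counts in monocytes and 60.2 in neutrophils, the one Ms4a6d transcript with more counts in neutrophils. These shares rest on kallisto's division of reads and were not tested.

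Within monocytes the tumours were compared, low metastatic TN2 against highly metastatic TN1, and no Ms4a member differed by the test. No gene at all reached an adjusted p under 0.05 (0.0% of 13384, edgeR), and 379 genes (2.83%) had an unadjusted p under 0.05, none of them a member. DESeq2 called 22 genes, no member among them. The log2 differences, TN2 minus TN1, were -0.22 ± 0.95 SE for Ms4a4c, -0.25 ± 0.84 for Ms4a6b, -0.35 ± 0.75 for Ms4a6c and -0.46 ± 0.92 for Ms4a6d. They were 0.77 ± 0.96 for Ms4a4b and 0.0046 ± 0.89 for Ms4a7, and the adjusted p was 1 for every member. The median over the 6 was -0.24, against 0.22 over all genes, and 2 of the 6 were positive, against 59.8% of all genes. The TN2 and TN1 monocytes of all 6 overlapped, while they did not overlap for 12.4% of all genes with TN2 higher and 7.73% with TN2 lower. The 95% interval of Ms4a4c, taken as normal from its SE, ran from -2.08 to 1.63 on the log2 scale, so that the data leave room for a difference in either direction.

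The monocyte differences moved with single libraries, and none passed the test in any of these fits. Without TN2 tag_706, the lowest TN2 library for the leading members, Ms4a4c was at 0.16 ± 0.97, Ms4a6b at 0.08 ± 0.87, Ms4a6c at -0.01 ± 0.76 and Ms4a6d at -0.09 ± 0.94, TN2 minus TN1. Without TN2 tag_1341 they were at -0.72 ± 1.04, -0.75 ± 0.93, -0.59 ± 0.86 and -1.03 ± 1.01 in the same order. Without TN2 tag_367 Ms4a6c was at -0.61 ± 0.87, and Ms4a6b was at -0.58 ± 1.08 without TN1 tag_191 and 0.16 ± 1.12 without TN1 tag_482. Ms4a4b was at 2.03 ± 1.30 without TN1 tag_191, 0.03 ± 1.10 without TN1 tag_482 and 0.18 ± 1.12 without TN2 tag_1341. In tag_706 the 12 neutrophil markers summed to 1568 CPM, against 220 to 856 CPM in the other monocyte libraries. Among the monocytes it was highest for 30.7% of all genes tested. It was highest for 7 of 8 alveolar macrophage, 9 of 10 natural killer cell, 5 of 6 mast cell and basophil, and 4 of 6 T cell markers. The same held for 7 of 12 neutrophil, 4 of 10 interstitial macrophage, 1 of 9 dendritic cell and 0 of 12 monocyte markers. Library tag_706 also had the most genes of any library, 15211 with at least 5 counts. Over the groups, Chil3, which is on both the alveolar macrophage and the monocyte list, was at 1672 to 9224 CPM in TN2 monocytes and 73.8 to 519 CPM in TN1 monocytes, the other 9 alveolar macrophage markers summed to 36.4 to 414 CPM in TN2 monocytes and 32.9 to 40.6 CPM in TN1 monocytes, which overlap, and the 10 dendritic cell markers to 172 to 305 CPM in TN2 monocytes and 348 to 1346 CPM in TN1 monocytes. The mitochondrial share of TPM was highest in TN1 tag_482, at 19.9% of the monocyte library and 3.002% of the neutrophil library. The part of any of these in the Ms4a values was not tested.

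Within neutrophils the same comparison gave positive differences for 5 of 6 members, where 59.7% of all genes were positive, and none passed the test. The values by library are those given above for each member. No gene reached an adjusted p under 0.05 (0.0%, edgeR), 625 (4.67%) had an unadjusted p under 0.05, and DESeq2 called 87, no member among them. Ms4a6b had the smallest p of the members. Its log2 difference, TN2 minus TN1, was 2.26 ± 0.94 SE (unadjusted p = 0.0373, adjusted p = 0.943, edgeR). The differences were 1.90 ± 1.03 for Ms4a4c, 1.69 ± 0.81 for Ms4a6c, 1.11 ± 0.97 for Ms4a6d and 0.31 ± 0.98 for Ms4a4b. Ms4a7 was at -1.61 ± 0.93, on 7.81 counts in TN2 and 15.5 in TN1, and was the only one of the 6 whose groups did not overlap, with TN2 lower (5.91% of all genes did so, and 11.8% did with TN2 higher). The median of the 6 was 1.40, against 0.22 over all genes.

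The positive neutrophil differences rest largely on tag_1341. Without it the log2 difference, TN2 minus TN1, was 0.18 ± 0.72 SE for Ms4a4c, 0.94 ± 0.71 for Ms4a6b, 0.40 ± 0.55 for Ms4a6c, -0.52 ± 0.71 for Ms4a6d and -0.66 ± 0.98 for Ms4a4b, while Ms4a7 stayed at -1.58 ± 1.06. Without TN1 tag_482 the difference was 3.20 ± 1.45 for Ms4a4c and 2.22 ± 1.34 for Ms4a6d, and without TN1 tag_191 it was 1.23 ± 1.27 for Ms4a4c, 0.51 ± 1.19 for Ms4a6d and 1.41 ± 1.30 for Ms4a4b. None of these passed the test. In tag_1341 Ms4a4c was 5.58 times its highest level in the other neutrophil libraries, Ms4a6c 4.45 times, Ms4a6b 3.79 times and Ms4a6d 3.33 times. The same library was highest among the neutrophils for 8 of 12 monocyte markers and 5 of 12 neutrophil markers, against 23.8% of all genes. It was highest for 2 of 10 interstitial macrophage markers and 2 of 9 dendritic cell markers. Set against the mean monocyte level, it held 27.0% of Ms4a4c, 35.4% of Ms4a6b, 25.7% of Ms4a6c and 23.4% of Ms4a6d, while the other 4 libraries of neutrophils held 1.24% to 4.84% of Ms4a4c and 1.73% to 9.33% of Ms4a6b.

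The same share was taken for the 5 of 12 monocyte markers whose mean level in neutrophils was under 15% of that in monocytes. In tag_1341 it was 13.5% for Ccr2, 27.2% for Fn1, which encodes fibronectin, 32.0% for F13a1, a coagulation factor chain, 30.6% for Vcan, which encodes the proteoglycan versican, and 50.4% for Ly6c2, a surface marker of classical monocytes. In the other neutrophil libraries F13a1 was at 0.103% to 1.14% and Vcan at 0.0615% to 1.33%. The 5 markers were chosen on the means of these same libraries, so low values in most of them are partly built in. Of the other 7 markers, Lyz2, Plac8 and Chil3 were highest in tag_1341 too, and Csf1r, Cx3cr1, Itgam and Cd14 were not. Ms4a7 was not raised there, at 3.68% of its monocyte level. The part of monocyte RNA in these values was not tested.

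**Figure D3:**
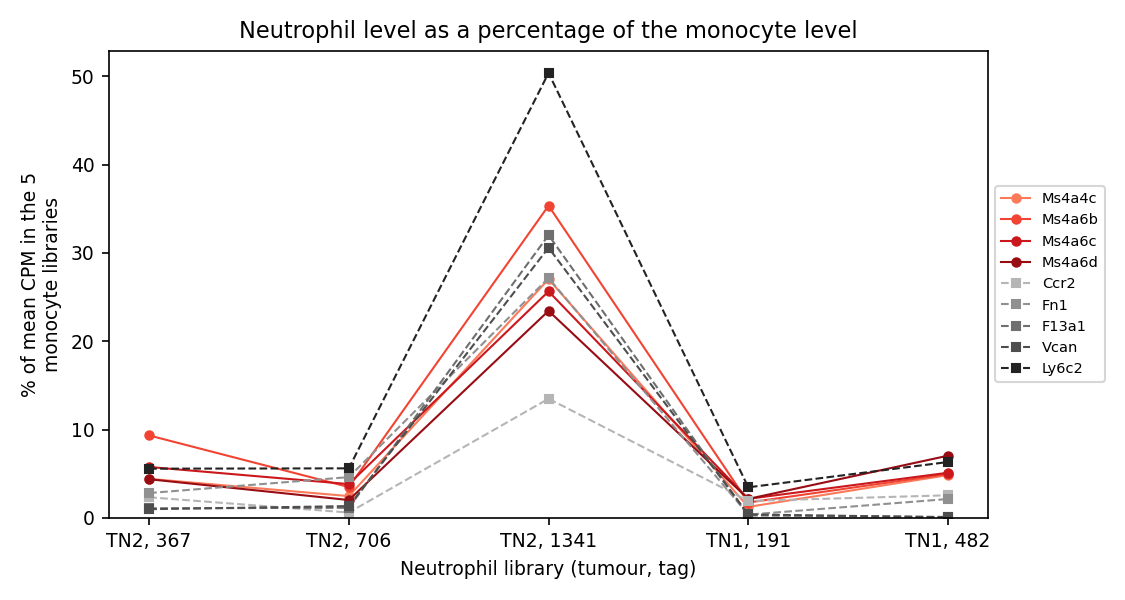
Level in each neutrophil library as a percentage of the mean CPM over the 5 monocyte libraries, for 4 members (red, solid) and 5 monocyte markers (grey, dashed). The markers were chosen for a mean in these neutrophil libraries under 15% of that in monocytes, so low values in most libraries are partly built in. Among the genes drawn, library TN2 tag_1341 stands at 13.5% to 50.4%, and no value of the other libraries exceeds 9.33%. Ms4a7 and Ms4a4b are not drawn. Both exceeded 9.33% in TN1 tag_191, where Ms4a7 was at 13.9%. In tag_1341 Ms4a7 was at 3.68% and Ms4a4b at 16.3%.

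The tumour effects of the cell types were compared directly, as the effect in monocytes minus that in neutrophils. No gene was called (0.0%, edgeR, with 472 genes or 3.53% at an unadjusted p under 0.05), and DESeq2 called 21, no member among them. A positive value was found in 2 of 6 members, against 49.0% of all genes. Ms4a6b had the largest difference of the 6 tested members, -2.52 ± 1.23 SE (unadjusted p = 0.0688, adjusted p = 0.9999), followed by Ms4a4c at -2.12 ± 1.37, Ms4a6c at -2.04 ± 1.09 and Ms4a6d at -1.58 ± 1.32. Without neutrophil library tag_1341 these were -1.19 ± 0.94, -0.40 ± 0.97, -0.75 ± 0.73 and 0.06 ± 0.95 in the same order.

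**Figure D4:**
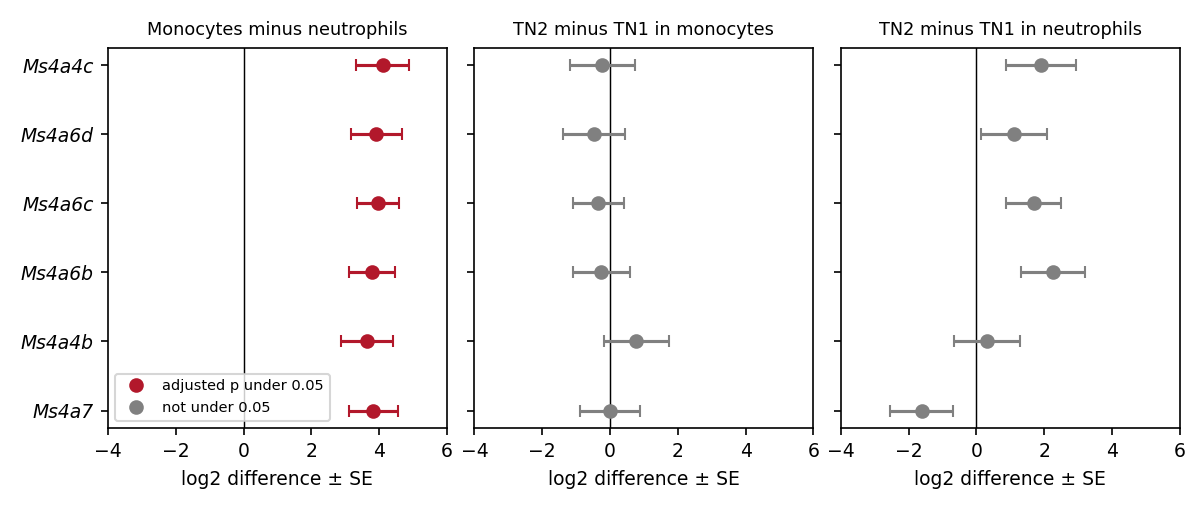
log2 differences of the 6 tested members with their standard errors (horizontal axis) in 3 comparisons, red where the adjusted p was under 0.05. The differences between monocytes and neutrophils lie between 3.64 and 4.11, and those between tumours, -0.46 to 0.77 in monocytes and -1.61 to 2.26 in neutrophils, did not pass. Ms4a7 passed the filter through the monocytes alone and had to differ between the cell types.

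Of the rest of the family, 13 listed genes that include the related Tmem176a and Tmem176b, 11 were in the tables and 4 passed the filter. Ms4a8a, reported in mouse tumour-associated macrophages, had 92.6, 79.2 and 138 CPM in TN2 monocytes and 84.1 and 36.0 CPM in TN1 monocytes, against 2.66, 2.42 and 20.3 CPM in TN2 neutrophils and 0 and 0.429 CPM in TN1 neutrophils. It was higher in monocytes by 5.85 ± 0.91 SE on the log2 scale (adjusted p = 0.00128, edgeR). In neutrophils its TN2 libraries all lay above its TN1 libraries, which held 0 and 3 counts, with an unadjusted p of 0.00356 and an adjusted p of 0.943, while DESeq2 gave an adjusted p of 0.0115. With TN1 at 3 counts in all, no fold is given for that difference. Library tag_1341, with 133 counts against 21 and 18 in the other TN2 libraries, was highest here too.

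Tmem176a and Tmem176b, which encode related intracellular membrane proteins and overlap on opposite strands of chromosome 6, were higher in monocytes by 3.31 ± 0.43 and 3.95 ± 0.60 SE on the log2 scale (adjusted p = 0.000493 and 0.00115, edgeR). Reads from their overlap cannot be assigned by strand. They did not follow tag_1341, where Tmem176b stood at 7.61% of its monocyte level against 1.36% to 11.9% in the other neutrophil libraries. Ms4a4d, which lies between Ms4a6b and Ms4a6d, was erratic: it had 1, 288 and 0 counts in TN2 monocytes and 0 and 1 in TN1 monocytes, against 15, 29 and 0 in TN2 neutrophils and 0 and 84 in TN1 neutrophils. Its difference between the cell types did not pass (-2.31 ± 2.10 SE, adjusted p = 0.434). Ms4a1 had 0 counts in the monocyte libraries and 1 count in the neutrophil libraries, and Ms4a2 had 0 in all.

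Known or candidate partners of the family were followed as a list of 10 genes, 8 of them tested. In monocytes against neutrophils 2 were higher and 3 lower, where 15.5% of all genes were called higher and 12.4% lower. Trem2, a lipid receptor of macrophages whose soluble form in humans is linked to the MS4A locus, was higher by 5.39 ± 0.72 SE on the log2 scale (adjusted p = 0.000593, edgeR), with 69.0, 31.7 and 33.5 CPM in TN2 monocytes and 69.5 and 91.5 CPM in TN1 monocytes, against 0.143 to 4.27 CPM in neutrophils. Selenos, a selenoprotein of the endoplasmic reticulum, was higher by 1.73 ± 0.31 (adjusted p = 0.00261). Clec7a, the beta-glucan receptor Dectin-1 that partners Ms4a4a in macrophages, was lower, with a log2 difference of -1.44 ± 0.21 (adjusted p = 0.00102). The signalling adaptors Tyrobp and Fcer1g were lower, with -1.62 ± 0.23 and -0.94 ± 0.23 (adjusted p = 0.000823 and 0.0141). Between tumours none of the 8 passed in either cell type. The smallest p of the list was that of Clec7a in monocytes, with a log2 difference, TN2 minus TN1, of -0.96 ± 0.29 SE (unadjusted p = 0.00828, adjusted p = 1, edgeR) and TN2 monocytes below TN1 monocytes without overlap.

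Between tumours the authors' deposited table gives a log2 fold, computed on TPM, for 6 members in each cell type, and none for Ms4a7 in neutrophils or Ms4a3 in monocytes, which it marks as insufficiently expressed. In neutrophils the authors' deposited table has 1.64 for Ms4a6b, 1.16 for Ms4a6c, 1.01 for Ms4a4c, 0.35 for Ms4a6d and 0.05 for Ms4a4b, TN2 over TN1. For Ms4a3 in neutrophils the authors' deposited table has 1.01 with an unadjusted p of 0.00683 and an adjusted p of 1, on the 7, 5 and 10 counts above. In monocytes the authors' deposited table has 1.35 for Ms4a4b, 0.38 for Ms4a7, 0.08 for Ms4a4c, -0.02 for Ms4a6b, -0.11 for Ms4a6c and -0.28 for Ms4a6d. The adjusted p of each of the 7 members in the authors' deposited table is 1.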

How the data were processed

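RNA was amplified by Smart-seq2 and sequenced on a HiSeq 2500, per the labels. The labels name kallisto 0.42.3 with the GRCm38 transcriptome as the authors' quantification, and the deposited library tables hold an estimated count and a TPM (a length-corrected share of transcripts) for 85276 transcripts. AltAnalyze is named in the labels for the authors' comparison tables, which hold deposited log2 means and log2 fold changes, a fold written as a signed score, and p-values. The authors' log2 means equalled the mean of log2(TPM + 1) within 0.01 for 68 of 68 values compared. The test behind the authors' p-values is not given in the sources used here.

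Transcripts were summed to genes with GENCODE M21, which matched 81839 of them (unmatched transcripts held 1.94% to 3.59% of counts and were left out). Rounded gene counts were fitted in 1 model of the 4 groups with edgeR 4.0.16 in R 4.3.3 (filterByExpr by group with at least 10 counts in total, TMM, quasi-likelihood F test, 6 residual degrees of freedom), with Benjamini-Hochberg adjustment over 13384 genes and a threshold of 0.05. CPM are counts per 1000000 of the TMM-scaled library size, with no pseudocount. SE is the log2 difference over the square root of F, and fold changes in the comparisons are log2. The script was tested on simulated data. Of the library pairs, 0 held identical gene counts. Alternatives were edgeR with RLE size factors or without the filter, DESeq2 1.42.0, limma 3.58.1 on log2(TPM + 1) or log2(TPM + 0.1), each library left out, only 1 cell type, and a block by tag. The members were named by a rule that takes all of the list, and members, gene lists and markers were chosen with earlier results of these data known. Promoters are from RefSeq (GRCm38.p6). Sex, age and cell numbers are not given in the sources used here.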

Additional observations from a re-analysis of the deposited data

Results flagged for a closer look

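Among 14 sets of 5 libraries (7 members in 2 cell types), 6 held a library whose gap to the nearest other exceeded Dixon's 95% critical value of 0.71 of the range. A rate of about 1 in 20 by chance holds for values with a normal spread, and these gaps were taken on CPM without a log. The 6 flags are therefore not weighed against that rate, and the members are not independent of each other. Of these, 4 concern neutrophil library TN2 tag_1341. Its gap was 0.860 of the range for Ms4a4c (244 CPM, the nearest library at 43.6 CPM), 0.846 for Ms4a6c (134 and 30.2 CPM), 0.774 for Ms4a6b (125 and 33.1 CPM) and 0.766 for Ms4a6d (162 and 48.8 CPM). For Ms4a6c in monocytes, library TN2 tag_706 stood low with a gap of 0.921 (234 CPM, the nearest library at 585 CPM). For Ms4a3 in monocytes the gap of 1 reflects 3 counts in TN2 tag_367 and 0 in the others. The cause of these gaps was not tested.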

How the results depend on the processing

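Between the cell types, all 112 alternative values (16 alternatives, for the 6 tested members and Ms4a8a) kept direction and call, with log2 differences of 2.99 to 7.91. Ms4a7 reached the count minimum in 5 monocyte and 0 neutrophil libraries and had to differ, so its values say nothing about stability. The count of all genes called, 3733, moved by over 1.5 times under limma on log2(TPM + 1), to 5730 (4532 higher and 1198 lower, against 2070 and 1663), and ran from 2687 to 3854 with 1 library left out. The median log2 difference of all genes there was 0.46, against 1.003 under limma on log2(TPM + 0.1) and 1.001 without neutrophil library TN1 tag_191.

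Between tumours, no tested member was called under any alternative run, and Ms4a8a in neutrophils was called by DESeq2. Against 0 genes called in neutrophils, 2 were called without the filter, 87 by DESeq2, 1 by limma on log2(TPM + 1), 3 by limma on log2(TPM + 0.1), and 0 to 508 with 1 library left out, the 508 without TN1 tag_191. Against 0 in monocytes, 22 were called by DESeq2 and 0 to 129 with 1 library left out, the 129 without TN1 tag_191. For the difference of these effects, 1 was called without the filter, 21 by DESeq2, and 0 to 374 with 1 library left out, the 374 without neutrophil library TN1 tag_191 and 68 without monocyte library TN1 tag_191. With a TN1 library left out, the lone TN1 library is assumed to vary like the other groups.

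Signs turned in 18 of 447 alternative values, none of them called. In monocytes, TN2 minus TN1, Ms4a4c was at 0.08 under limma with either pseudocount (0.0789 and 0.0788), and Ms4a7, at 0.0046 in the model of all libraries, was at -0.0745 with RLE size factors, -0.0755 by DESeq2 and -0.00032 with monocytes alone. With 1 library left out, Ms4a4c ran from -0.72 to 0.16, Ms4a6b from -0.75 to 0.16 and Ms4a7 from -0.22 to 0.14. In neutrophils Ms4a4b ran from -0.66 to 1.41 and Ms4a6d from -0.52 to 2.22. For the difference of the effects Ms4a4b ran from -0.64 to 1.84 and Ms4a6d from -2.68 to 0.059. The cause was not tested.

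A replicate block by tag gave 3335 genes between the cell types and 0 for the difference of effects, and all members kept their calls. Libraries with the same tag correlated in their deviations at -0.0569 to 0.38, not all above 0.1, so the tags were not treated as pairs. In 4 of 5 tags the best correlation was with the own tag. With 2 TN1 libraries in each cell type, tag_191 and tag_482 have the same correlation (0.089) and are not separate outcomes. For Ms4a4c, Ms4a6d, Ms4a6c and Ms4a6b the tags of each tumour had the same order in both cell types. A shared origin of the libraries of a tag was not tested. Between tumours no paired analysis was possible because each tag occurs in 1 tumour only. Low counts limit Ms4a3 and Ms4a7 in neutrophils.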
